A study of Mus musculus with 2 samples.

Results

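Conventional naive-like CD4 T cells of the mouse spleen were described in a pair of single-cell libraries, 1 from wild-type splenocytes and 1 from splenocytes carrying the M694I knock-in of Mefv, which encodes the inflammasome sensor pyrin. The cells were chosen by their own transcript counts. A barcode was kept with at least 500 unique molecular identifiers (UMIs, which count each captured RNA molecule once), at least 200 genes and under 10% mitochondrial UMIs. A kept cell was a naive-like CD4 T cell when it held at least 2 UMIs over the T cell receptor subunits Cd3d, Cd3e and Cd3g, at least 1 UMI of the helper coreceptor Cd4, none of the cytotoxic coreceptor genes Cd8a and Cd8b1 or the B cell genes Cd79a and Ms4a1, and under 2 over Foxp3, Ctla4, Ikzf2, Tnfrsf4 and Izumo1r, which mark regulatory and activated CD4 T cells. This selected 173 of 18316 kept cells: 118 of 9733 in the wild-type and 55 of 8583 in the knock-in library. Both libraries came from spleen cells of mice kept free of specific pathogens, age-matched per the series' design text, with genotypes given as M694I WT and M694I knock-in. The titles name 1 mouse each, and the sources used here do not give the strain, age, sex, zygosity or how many mice went into a library. In the naive-like CD4 cells, Xist and Tsix were at 0 UMIs in both libraries. The Y-linked genes Ddx3y, Uty, Eif2s3y and Kdm5d gave 91 wild-type and 37 knock-in UMIs, as in male cells.

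Naive CD4 T cells have left the thymus but have not yet met the antigen that their receptor recognises. They circulate through spleen and lymph nodes, guided by the homing receptor Ccr7 and the egress receptor S1pr1, and are kept quiescent and alive by factors such as Tcf7, Lef1, Klf2 and Foxp1 and by the interleukin 7 receptor. After antigen contact, effector and memory cells lower this programme and gain genes such as S100a4, Cxcr3, Itgb1, Il2rb and Ccl5. Pyrin itself works mainly in myeloid cells, so a lymphocyte would meet its activity chiefly through cytokines made by others. Mefv gave 0 UMIs in the naive-like CD4 cells of both libraries, which allows a share of cells with a Mefv UMI of up to 2.54% and 5.45%.

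Each genotype had 1 library, so no test could be made. Intervals are 95% exact intervals that cover counting error only, treat UMIs as independent, and come out too narrow for a gene whose UMIs sit in a small number of cells. Each ratio is knock-in over wild-type and compares 2 libraries, not 2 genotypes. The libraries held 10449 and 9000 barcodes, and kept cells had medians of 2557 wild-type and 2049 knock-in UMIs. The naive-like CD4 cells were deeper in the wild-type library, with a median of 2984 UMIs (1274 to 14219) and 1058.5 genes, than in the knock-in library, with 2005 UMIs (765 to 7293) and 898 genes. In all they held 388193 and 126590 UMIs. Of 27 barcode sequences that occurred in both libraries, 0 belonged to these cells.

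Naive-like CD4 cells were a smaller share of the knock-in library when all UMIs were used, and the few cells left at equal depth did not settle whether they were. They made up 1.21% of kept wild-type cells (1.00% to 1.45%) and 0.641% of kept knock-in cells (0.483% to 0.833%), a share 1.89-fold lower (1.36 to 2.66). Of CD4 T cells, defined by the same gates without the last, they were 118 of 215 (54.9%, 48.0% to 61.7%) and 55 of 151 (36.4%, 28.8% to 44.6%). The CD4 cells with 2 or more UMIs of the 5 regulatory and activation genes were at 0.997% and 1.12%, and CD8 cells at 4.48% and 6.78%. When every cell was thinned to 1000 UMIs and the gates were applied again, naive-like CD4 cells were 35 of 9576 (0.365%) and 27 of 8203 (0.329%), a log2 ratio of -0.15 (-0.93 to 0.61), an interval that holds both 0 and the ratio with all UMIs (-0.92). Of CD4 T cells they were then 61.4% (of 57) and 48.2% (of 56), a log2 ratio of -0.35 (-1.13 to 0.42). CD8 cells kept a higher share in the knock-in library after thinning, with 129 and 203 cells and a log2 ratio of 0.88 (0.55 to 1.21).

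**Figure D1:**
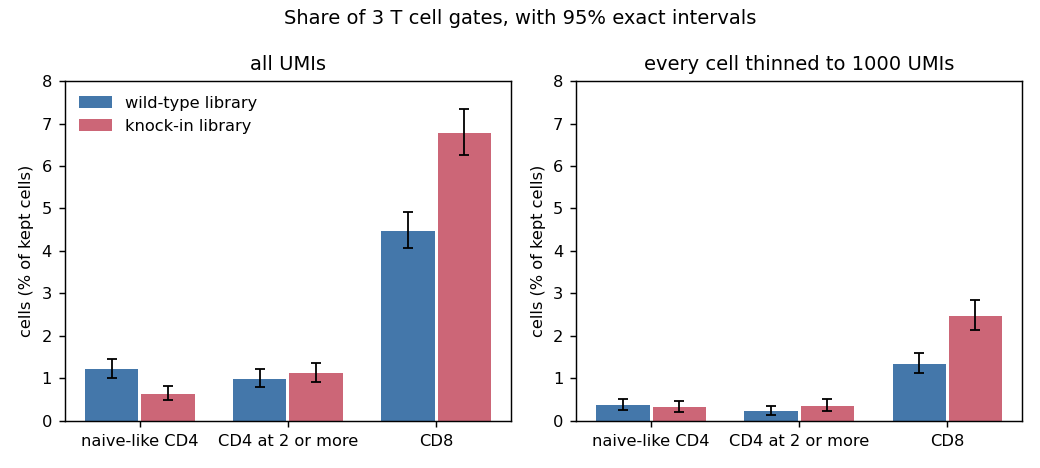
Share of kept cells (%, vertical axis) in 3 T cell gates, with all UMIs on the left and with every cell thinned to 1000 UMIs on the right. Blue bars are the wild-type library, red bars the knock-in library, and error bars 95% exact intervals; naive-like CD4 cells stand at 1.21% and 0.641% on the left and at 0.365% and 0.329% on the right.

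The Cd4 gate was met by a small share of T cells, and mostly by a single UMI. Of 1638 wild-type and 1577 knock-in T cells, 59.6% and 53.1% held neither a Cd4 nor a Cd8 UMI. Of these, 733 wild-type and 553 knock-in cells met every other gate with 0 Cd4 UMIs, against 103 and 49 that were admitted by exactly 1 and 15 and 6 that held more. Cd4 was present in 0.203% and 0.144% of B cells. On the regulatory gate, 90 and 34 naive-like cells stood at 0 UMIs and 28 and 21 at 1, just inside, while 18 and 6 CD4 cells stood at 2, just outside. On the Cd3 gate, 19 and 13 stood at 2, just inside, and 21 and 16 at 1, just outside.

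Igfbp4, Lef1 and Tcf7, naive markers that the gates did not use, were found in a larger share of these cells than of CD4 cells with 2 or more regulatory UMIs or of B cells, in both libraries, whereas after thinning Lef1 was found in a similar share of CD8 cells. Igfbp4, a binding protein of insulin-like growth factors that marks naive CD4 T cells, was at 258 CPM (UMIs of a gene per 1000000 UMIs of these cells) in wild-type cells and 355 CPM in knock-in cells. It gave a UMI in 31.4% and 34.5% of naive-like CD4 cells, in 5.15% and 2.08% of CD4 cells with 2 or more regulatory UMIs, and in 0.375% and 0.360% of B cells. Lef1, a transcription factor of naive and immature T cells, was at 482 and 442 CPM and gave a UMI in 78.0% and 52.7% of cells; after thinning to 1000 UMIs these shares were 38.1% and 37.7%, against 35.9% and 36.2% of CD8 cells and 1.34% and 0.957% of B cells. Tcf7, its partner, was at 353 and 363 CPM and gave a UMI in 61.0% and 47.3% of cells, and in 30.5% and 24.5% after thinning. Foxp3 was at 0 UMIs in both libraries, but it is 1 of the 5 genes that the gate holds under 2 UMIs, so this is no separate evidence. The coreceptor pair Cd8a and Cd8b1 was at 0 by construction. The helper gene Cd40lg was found in 16.9% and 9.09% of naive-like CD4 cells against 0.459% and 0.515% of CD8 cells. Zbtb7b, which commits thymocytes to the CD4 lineage, gave 1 UMI in each library and was not detectable as a marker at this depth.

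**Figure D2:**
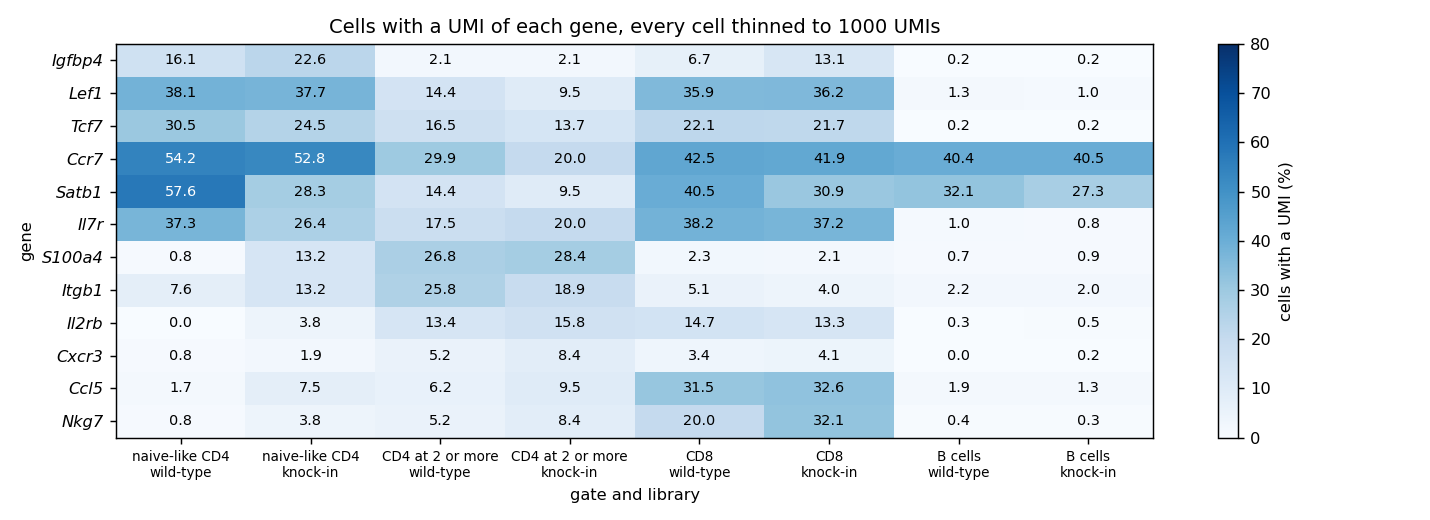
Cells with a UMI (%, colour and printed value) of 12 genes (rows) in 4 gates of both libraries (columns), every cell thinned to 1000 UMIs. Naive genes stand above and effector genes below; Igfbp4 and Tcf7 are near 0 in B cells, whereas Ccr7 and Satb1 are not, and S100a4 is at 0.847% of wild-type and 13.2% of knock-in naive-like CD4 cells.

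Against CD4 cells with 2 or more regulatory UMIs, Igfbp4, Satb1 and Lef1 were among the highest genes in naive-like CD4 cells of both libraries, and Rgs16, Itgav and Tnfrsf9 among the lowest. A gene was read at 50 CPM or more on average and 100 UMIs or more in all, and called higher or lower where its log2 ratio was 0.5 or more in size in both libraries. Of 1793 genes read, 100 (5.58%) were higher in naive-like cells and 465 (25.9%) lower. The other CD4 cells held more UMIs (501047 and 327642) than the naive-like cells (388193 and 126590). A gene high in them could pass the filter through them alone, so the 2 counts are not set against each other. Igfbp4 led the higher genes, with log2 ratios over the other CD4 cells of 4.20 (3.11 to 5.56) in the wild-type and 4.54 (3.21 to 6.23) in the knock-in library. Satb1, a chromatin organiser of thymocytes and naive T cells, followed with 2.13 and 2.25, and Lef1 with 1.69 and 2.23. The same group held Tle4, a corepressor that works with Tcf7 and Lef1 (1.55 and 1.58), the Tec family kinase Txk (1.25 and 2.63), Ifngr2, a chain of the interferon gamma receptor (1.92 and 2.37), and Tmem64, Lars2, Vps37b and Ugcg. On the lower side were Rgs16, a brake on G protein signals (-4.44 and -4.09), the integrin chain Itgav (-4.16 and -3.91), the costimulatory receptor Tnfrsf9, also called 4-1BB (-2.87 and -3.76), Cd200 (-2.93 and -2.80), the phosphatase Dusp14, Eea1, Stx11, Ier5l and the replication-dependent histones Hist1h2ae and Hist1h2ap. Each of these 10 lower genes rested on at most 33 wild-type and 3 knock-in UMIs in naive-like cells. The gates that split the CD4 cells chose these cells, so the values are a description.

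Against CD8 cells, genes of cytotoxic cells were on the lower side and Igfbp4, Ramp3 and Tmem64 on the higher side. Of 2261 genes, 170 (7.52%) were higher in naive-like CD4 cells in both libraries and 52 (2.3%) lower. CD8 cells held more UMIs as well (1797547 and 2115328), so the same limit of the filter holds. Ramp3, a receptor activity-modifying protein, was at 278 CPM in wild-type naive-like CD4 cells and 72.9 CPM in CD8 cells, and at 340 and 51.1 CPM in the knock-in counterparts (log2 ratios 1.93, 1.55 to 2.31, and 2.73, 2.19 to 3.26). Tmem64 had log2 ratios of 2.38 and 2.91, Igfbp4 of 2.14 and 1.49, the calcium-binding protein Tesc of 1.96 and 1.83, and Xbp1, a transcription factor of the secretory pathway, of 1.42 and 1.36. Ly6a, an interferon-inducible surface protein, was higher in naive-like CD4 cells as well (2.43 and 1.89), from 14 and 16 UMIs. Acsl3, C9orf72, Sgms1 and Arl5b completed the 10 highest. The 10 lowest held genes of cytotoxic cells: Nkg7 (-3.07 and -2.84), Ctsw (-2.35 and -2.60), Klrd1 (-3.38 and -2.69) and Runx3, the factor that represses Cd4 in CD8 cells (-1.71 and -1.50). Ly6c2 gave 0 UMIs in wild-type and 4 in knock-in naive-like CD4 cells, against 322 and 411 CPM in CD8 cells, and Plac8, Fam241a, Bend4, Pde2a and Dnajc15 made up the rest. Against the 264 wild-type and 357 knock-in CD8 cells without a Ccl5 UMI, 145 genes were higher and 57 lower.

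With all UMIs, more of the knock-in than of the wild-type cells carried effector and memory genes. At least 1 UMI of Ccl5, S100a4, Cxcr3, Itgb1, Il2rb or Ccr2 was found in 18 of 118 wild-type cells (15.3%, 9.30% to 23%) and in 23 of 55 knock-in cells (41.8%, 28.7% to 55.9%), although the knock-in cells were shallower. With the same cells thinned to 1000 UMIs the shares were 11% (6% to 18.1%) and 32.1% (19.9% to 46.3%). In B cells, which should hold little of these genes, they were 11.5% and 9.39% at median depths of 2367.5 and 1887 UMIs, and 4.65% and 4.38% after thinning. The wild-type share was thus near the level in B cells with all UMIs and above it after thinning, and the knock-in share was above it in both. The CD4 cells with 2 or more regulatory UMIs held these genes at 76.3% and 76.0%. With 0 regulatory UMIs the shares were 11.1% (10 of 90) and 35.3% (12 of 34), and 7.78% and 30.3% after thinning. When all cells were thinned first and then gated, which changes depth and members at once, they were 31.4% (11 of 35, 16.9% to 49.3%) and 33.3% (9 of 27, 16.5% to 54.0%), so this setting did not show the difference. Within it, Ccl5 was found in 0 of 35 and 4 of 27 cells and S100a4 in 3 of 35 and 4 of 27. Read with all their UMIs, these 35 and 27 cells held the 6 genes at 37.1% (13 of 35, 21.5% to 55.1%) and 44.4% (12 of 27, 25.5% to 64.7%). The difference was thus not shown for these members at full depth either. Without the Cd4 requirement the shares were 28.9% of 851 and 46.4% of 608 cells, a wider set in which CD4 and CD8 cells without a captured coreceptor cannot be told apart.

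Ccl5, a chemokine of memory and cytotoxic T cells, and S100a4, a calcium-binding protein of memory cells, were the most uneven of the 6 genes between the libraries. Ccl5 gave 35 UMIs in 2 wild-type cells, 33 of them in 1 cell, and 212 UMIs in 8 knock-in cells, of which 4 held 76, 72, 30 and 30. These 4 knock-in cells were shallow, at 969 to 1760 UMIs. Each of them held Nkg7, 0 of 4 held Lef1 and 1 held Ccr7, and their naive list transcripts made up a median of 0.0631% of UMIs against 0.602% over all knock-in naive-like CD4 cells. These transcripts go against the naive label of the 4 cells. S100a4 gave 2 UMIs in 1 wild-type cell and 28 UMIs in 7 knock-in cells. Of the 28, 8 lay in a cell that also held 128 Cd74 and 320 B cell list UMIs, and 3 in 1 of the 4 Ccl5 cells. The high counts of Ccl5 and S100a4 were thus held by few cells, and the wild-type share of cells with Ccl5 (1.69%) lay below that of B cells (3.90%). Nkg7 was found in 1 wild-type and 5 knock-in cells. Of 28 genes in the effector and memory list, 24 gave a UMI, and their summed level was 1826 CPM in wild-type cells and 6019 CPM in knock-in cells, a log2 ratio of 1.72 (1.57 to 1.87). Of the 762 knock-in UMIs in this sum, 70 lay in the cell with 128 Cd74 UMIs. Without the 5 cells at 10 or more Ccl5 UMIs, a step chosen after their counts were seen, the sums were 1664 and 4084 CPM (1.30, 1.12 to 1.47). The same sum had a log2 ratio of 0.03 (-0.03 to 0.10) in CD4 cells with 2 or more regulatory UMIs and of 0.35 (0.31 to 0.38) in CD8 cells. Over all genes that passed the filter in naive-like CD4 cells, 76 of 542 (14%) were higher and 44 (8.12%) lower in the knock-in library. No more than 4 genes of the list passed it, and a gene of low wild-type level could pass it only through the knock-in cells, as Ccl5 did, so their count supports nothing. Their log2 ratios were 4.22 for Ccl5 (1.65 to 8.39 under the alternatives tried), 1.30 for S100a10, 1.03 for the intermediate filament Vim and 0.91 for Crip1.

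**Figure D3:**
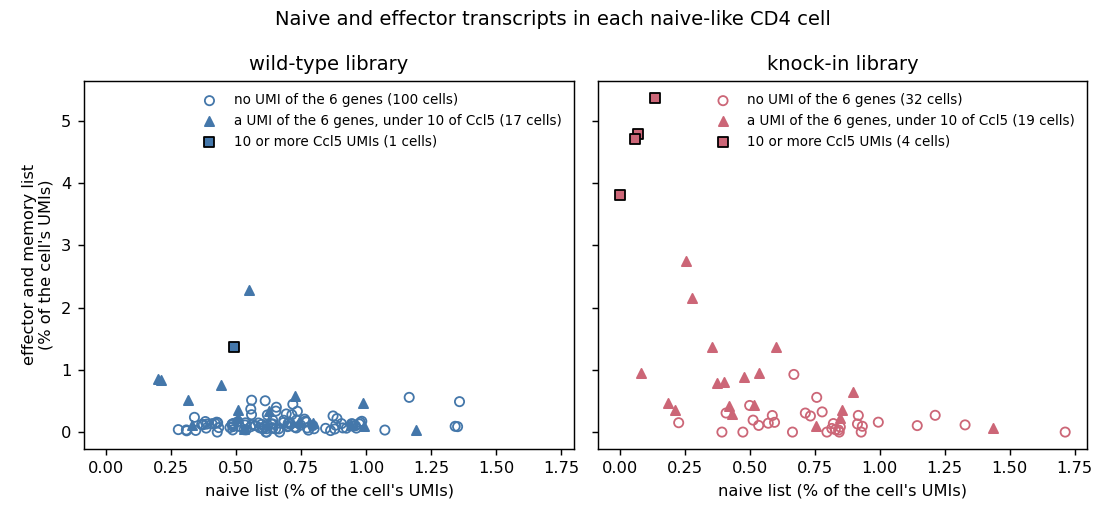
Each naive-like CD4 cell by the percent of its UMIs in the naive list (horizontal axis) and in the effector and memory list (vertical axis), wild-type on the left and knock-in on the right. Open circles hold no UMI of the 6 effector genes, triangles hold at least 1, and squares hold 10 or more Ccl5 UMIs; the 4 knock-in squares stand at 3.82% to 5.37% of effector transcripts and at most 0.136% of naive transcripts.

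Among the naive genes themselves, Satb1 was lower in the knock-in cells. Satb1 was at 750 CPM (291 UMIs) in wild-type cells and 466 CPM (59 UMIs) in knock-in cells, a log2 ratio of -0.69 (-1.11 to -0.28), and gave a UMI in 82.2% and 50.9% of cells, or 57.6% and 28.3% after thinning. Satb1 was at -0.81 in CD4 cells with 2 or more regulatory UMIs, where 144 of 1199 genes (12%) were higher and 84 (7.01%) lower, and at -0.59 in CD8 cells, where 162 of 2156 (7.51%) were higher and 90 (4.17%) lower. It stayed lower in naive-like CD4 cells under all 16 alternatives tried (-0.99 to -0.47). Foxp1, a repressor that keeps naive T cells quiescent, was at 376 and 261 CPM (-0.53, -1.12 to 0.02), and at -1.20 and -0.48 in the other gates, but at 0.54 with cells thinned before gating. The remaining measured naive genes lay within 0.5 in size: Igfbp4 at 0.46, Klf2 at 0.28, S1pr1 at 0.11, Tcf7 at 0.04, Lef1 at -0.12, Ccr7 at -0.22 and Il7r at -0.24. The signs of Tcf7, Lef1, Ccr7 and Il7r each differed under at least 1 alternative. Of 20 naive genes all gave a UMI and 9 passed the filter in naive-like CD4 cells. Of these 9, 0 were higher and 2 lower, beside 14% higher and 8.12% lower over all genes read. The summed level of the 20 genes was 6569 and 6470 CPM. The log2 ratio of the sums was -0.02 (-0.14 to 0.09). Per cell, naive transcripts ran from 0.200% to 1.36% of wild-type and from 0% to 1.71% of knock-in UMIs, at a lower knock-in depth.

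The median log2 ratio over the 542 genes that passed the filter was 0.07. Ribosomal protein genes lay on the lower side: 0 of 80 were higher and 15 lower, beside 14% higher and 8.12% lower over all 542 genes. Together the ribosomal protein genes made up 41.6% of wild-type and 36.5% of knock-in UMIs. Rps29, a small-subunit protein, was at 17028 and 9132 CPM (-0.90, -0.99 to -0.81), and at -0.78 in the other CD4 cells and -0.74 in CD8 cells. Of 11 mitochondrial transcripts 0 were higher and 2 lower, beside the same 14% and 8.12%. The 2 were mt-Nd3 at 456 and 158 CPM (-1.53) and mt-Nd1 at -0.69. Other scalings moved all ratios down. Trimmed means of M values (TMM) shifted them by -0.23 and left 25 higher and 107 lower, median-of-ratios factors by -0.21 (31 and 99), and a total without ribosomal protein and mitochondrial genes and Malat1 by -0.15 (38 and 88). A ratio close to 0.5 thus depends on the scaling.

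**Figure D4:**
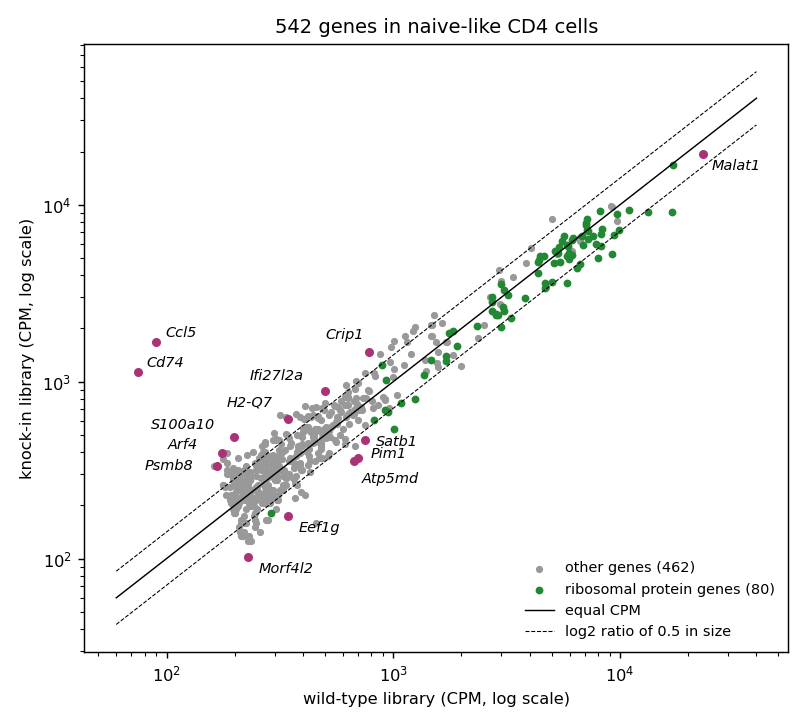
CPM of 542 genes in naive-like CD4 cells of the wild-type (horizontal) and knock-in library (vertical), both on log axes. The solid line marks equal CPM and dashed lines a log2 ratio of 0.5 in size; Ccl5 and Cd74 stand far above the line, and ribosomal protein genes (green) lie mostly on or under it.

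The 10 highest ratios were those of Ccl5, Cd74, S100a10, Arf4, Dusp2, Cdkn1b, Gna13, Vim, Psmb8 and Crip1. Cd74, the invariant chain of MHC class II, had a log2 ratio of 3.92, but 128 of its 143 knock-in UMIs lay in 1 cell, and it was 0.45 without the 3 cells that carried markers of other cell types. S100a10, an annexin partner, was at 198 and 490 CPM (1.30, 0.80 to 1.81) and Arf4, a small GTPase of the Golgi, at 175 and 395 CPM (1.17, 0.62 to 1.72). The phosphatase Dusp2 had a log2 ratio of 1.09, the cell cycle inhibitor Cdkn1b of 1.03 and the G protein subunit Gna13 of 1.03. These were smaller elsewhere: in CD4 cells with 2 or more regulatory UMIs and in CD8 cells Arf4 stood at 0.55 and 0.22, Dusp2 at 0.44 and 0.12, Cdkn1b at 0.04 and 0.28, and Gna13 at 0.40 and 0.03. Whether the gates differ in these ratios was not tested. With cells thinned before gating, the ratios were below 0 for S100a10 (-0.09), Vim (-0.21), Gna13 (-0.36) and Crip1 (-1.08).

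The lowest ratio was that of Morf4l2. Morf4l2, a subunit of histone acetyltransferase complexes, was at 229 and 103 CPM (89 and 13 UMIs), a log2 ratio of -1.16 (-2.12 to -0.31). The translation factors Eef1g (343 and 174 CPM, -0.98), Eif3a (-0.91) and Eif3i (-0.86) stood beside it, with Atp5md, a subunit of the ATP synthase (672 and 355 CPM, -0.92), and the kinase Pim1, a survival factor downstream of cytokine receptors (698 and 371 CPM, -0.91). Arap2 (-0.86), the RNA-binding protein Hnrnpdl (-0.83), Sec62 of the protein translocation machinery (-0.79) and the repressor Zeb1 (-0.76) made up the rest. Of these 10, the signs of Morf4l2, Atp5md, Pim1, Eif3a, Arap2 and Zeb1 held under each alternative that gave them a value. Those of Eef1g, Eif3i, Hnrnpdl and Sec62 did not: with cells thinned before gating they were 0.37, 0.37, 0.62 and 1.22. Eif3i was higher in the knock-in library in the other CD4 cells (0.56) and in CD8 cells (0.42).

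Interferon-responsive and MHC class I transcripts, which the title of the series puts forward, were higher in the knock-in cells in sum. Over 59 type I interferon genes, 53 with a UMI, the summed level was 3217 CPM in wild-type cells and 4779 CPM in knock-in cells (log2 ratio 0.57, 0.43 to 0.71), against 0.23 in the other CD4 cells and 0.30 in CD8 cells. Over 38 interferon gamma genes it was 1994 and 2954 CPM (0.57, 0.39 to 0.75), against 0.14 and 0.42. Over 19 MHC class I genes it was 6548 and 8476 CPM (0.37, 0.27 to 0.48), against 0.36 and 0.23. Per cell, the type I genes gave a median of 9 wild-type and 8 knock-in UMIs, and of 3 and 4 after thinning. A single cell held 61 of the 1249 wild-type type I UMIs, and another 79 of the 605 knock-in ones. The TMM scaling shifts every ratio by -0.23, these sums included. Under it the medians over genes that passed the filter were 0.08 for the type I, 0.15 for the gamma and 0.16 for the MHC class I genes. Few of these genes were deep enough to be read singly. Of the type I genes 5 passed the filter, 2 higher and 1 lower (median 0.31), of the gamma genes 4, with 2 higher and 0 lower (0.37), and of the class I genes 7, with 3 higher and 0 lower (0.39), beside 14% higher and 8.12% lower over all genes read. With TMM scaling the counts were 1 and 1, 1 and 0, and 2 and 1.

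Psmb8, a catalytic subunit of the immunoproteasome, which cuts proteins into peptides for MHC class I, was at 167 CPM (65 UMIs in 48 cells) in wild-type cells and 332 CPM (42 UMIs in 26 cells) in knock-in cells. Its log2 ratio was 0.99 (0.39 to 1.57), 0.58 in the other CD4 cells and 1.08 in CD8 cells, and stayed between 0.76 and 1.83 under 16 alternatives. H2-Q7, a class Ib molecule, was at 343 and 616 CPM (0.85, 0.42 to 1.26), H2-T23, the ligand of inhibitory NK receptors, at 185 and 316 CPM (0.77, 0.17 to 1.35) and the classical molecule H2-D1 at 1463 and 2093 CPM (0.52, 0.30 to 0.73). H2-K1 followed at 0.38 and B2m, the light chain they share, at 0.13, while the chaperone Calr was at -0.45 (-1.13 to 0.18). The H2 genes are close paralogs, and reads may be split between them. Ifi27l2a, an interferon-induced mitochondrial protein, was at 500 and 885 CPM (0.82, 0.48 to 1.17) but at -0.10 with cells thinned before gating and 0.02 without the Cd4 requirement. Ms4a6b, a tetraspan surface protein, was at 178 and 261 CPM (0.55, -0.09 to 1.17), Ifngr1, the ligand-binding chain of the interferon gamma receptor, at 301 and 466 CPM (0.63, 0.15 to 1.09), and Slfn2, which guards quiescence, at 304 and 190 CPM (-0.68, -1.38 to -0.04) but at 0.18 with cells thinned before gating. Under the filter, Irf7, which amplifies the interferon response, gave 7 wild-type and 13 knock-in UMIs, and Ly6a gave 14 and 16. In both libraries an Irf7 UMI was found in few cells, 5.08% and 14.5%, beside 6.81% and 7.34% of B cells.

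**Figure D5:**
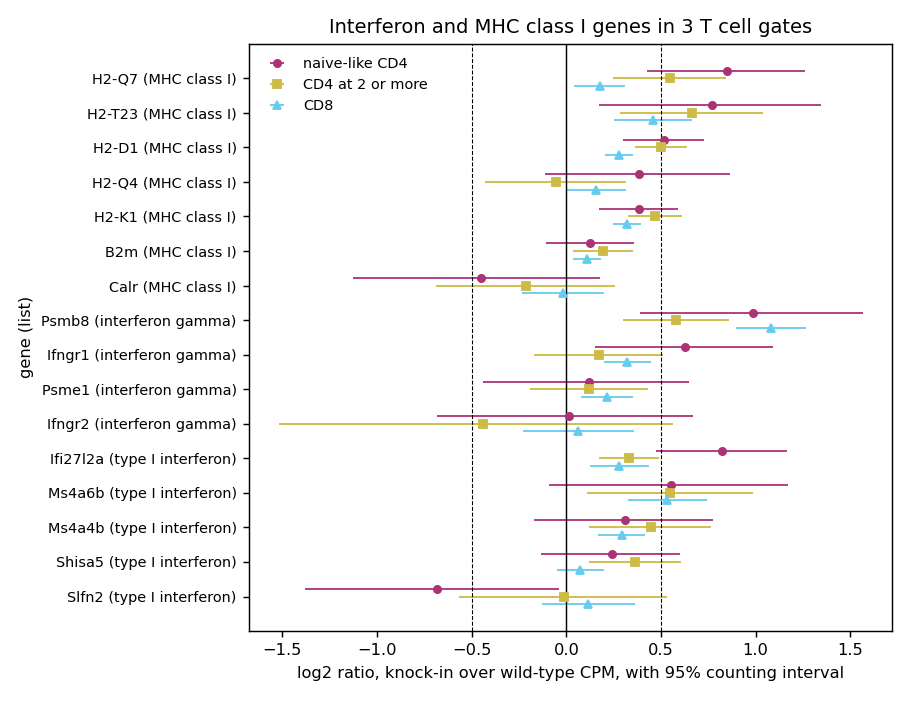
Log2 ratio of knock-in over wild-type CPM (horizontal axis) of the 16 measured interferon and MHC class I genes in naive-like CD4 cells (circles), CD4 cells with 2 or more regulatory UMIs (squares) and CD8 cells (triangles), with 95% counting intervals. Dashed lines mark 0.5 in size; Psmb8, H2-Q7 and Ifi27l2a stand at 0.99, 0.85 and 0.82 in naive-like CD4 cells, and Slfn2 at -0.68.

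The promoters of the 7 genes called higher in the 3 lists were read for the sites of interferon-activated factors. As background, such factors bind the interferon-stimulated response element (ISRE) and the gamma-activated site (GAS). RefSeq promoters of GRCm38.p6 were held for 6 of the 7 genes. The letters GAAANNGAAA were used for the ISRE and TTCNNNGAA for the GAS, on both strands. In the 250 bases before the gene start, the ISRE letters were found in 1 of the 6 and the GAS letters in 1, beside 2.98% and 7.02% of 32851 promoters. The stretches of 30 bases around both matches are shown in the direction of transcription, with the match in capitals, because these are the only matches in the 6 genes. They lie on chromosome 17, that of Psmb8 at chr17:34198087-34198116 on the plus strand and that of H2-T23 at chr17:36032806-36032835 on the minus strand, and the matches begin 97 and 124 bases before the gene starts that RefSeq gives. The GENCODE M21 models Psmb8-201 and H2-T23-201 start further upstream, at 34197790 and 36032855, and place both stretches in the UTR of exon 1. The H2-T23 match reads as the ISRE on the opposite strand. A match of letters is a description and not a site of binding, and no match says only that these letters are not in the window.
Psmb8 (GAS): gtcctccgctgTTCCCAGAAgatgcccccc
H2-T23 (ISRE): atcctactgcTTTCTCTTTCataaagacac

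Of 35 genes of T cell receptor signalling 15 passed the filter, 5 stood higher and 0 lower (median 0.37), beside 14% higher and 8.12% lower and a median of 0.07 over all genes read. With TMM scaling 0 of the 15 were higher and 1 was lower. Cd28, the costimulatory receptor of naive T cells, was at 438 and 711 CPM (0.70, 0.31 to 1.08), with a UMI in 72.0% and 78.2% of cells, and at 0.24 and 0.20 in the other CD4 and CD8 cells. The adhesion molecule Cd2 (0.54), the receptor chain Trbc2 (0.54) and the adaptor Skap1 (0.60) were higher as well, and so was Cd3g (0.65), which the gate itself asked for. The phosphatase Ptprc, or CD45 (-0.14), was not. Cd28 was at 0.22 without the Cd4 requirement.

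Antigen-response and quiescence genes were mixed. Of 36 immediate early genes 15 passed the filter, 6 were higher and 0 lower, and their median was 0.02, beside 14% and 8.12% over all genes read. With TMM scaling 1 was higher and 2 were lower. Junb was at 873 and 1430 CPM (0.71, 0.44 to 0.98) and Jund at 1515 and 2370 CPM (0.65, 0.44 to 0.85), both subunits of the AP-1 factor, and they were at 0.86 and 0.92 in the other CD4 cells and at 0.35 and 0.42 in CD8 cells. Dusp2, Btg2 (0.58), Zfp36l1 (0.58) and Ier2 (0.57) were the others. Of the other genes of the list, Nr4a3 was at -0.33 (-1.08 to 0.36), the early surface marker Cd69 at -0.43 (-1.07 to 0.16) and Nfkbia at -0.04. Of 20 quiescence and survival genes 13 passed the filter, 3 higher, which were Cdkn1b, Btg2 and the survival factor Mcl1 (0.55), and 2 lower, Foxp1 and Slfn2, beside 14% and 8.12% over all genes read. With TMM scaling 1 was higher and 3 were lower, and both Foxp1 and Slfn2 were above 0 with cells thinned before gating. Of 24 homing genes 7 passed and 1 was higher, a share near the 14% of all genes: Rac2, a GTPase of lymphocyte migration (299 and 513 CPM, 0.78, 0.32 to 1.23). Of 16 heat shock genes, a sign of handling stress, 6 passed the filter, 0 higher and 1 lower (Hspe1 at -0.74), beside 14% and 8.12% over all genes read. With TMM scaling 0 were higher and 2 lower. The summed level of the 16 genes was 4650 and 4282 CPM (log2 ratio -0.12, -0.26 to 0.02).

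Markers of other cell types were low in most naive-like CD4 cells, and 3 cells held 10 or more UMIs of such a list. In wild-type cells the B cell list was spread thinly, over 77 of 118 cells with at most 4 UMIs each. The B cell list gave a median of 1 UMI per cell in both libraries and 111 UMIs in all wild-type cells, but 374 in knock-in cells, of which 320 lay in 1 cell with 128 Cd74, 73 H2-Aa and 69 H2-Eb1 UMIs and 0 of Cd79a and Ms4a1. The NK list gave 78 and 33 UMIs, of which 69 lay in the wild-type cell that also held 33 Ccl5 and 40 Gzma UMIs and 20 in the knock-in cell with 320 B cell list UMIs. The myeloid list gave 22 and 29 UMIs, of which 19 lay in 1 knock-in cell with Ctsb, C1qb and Apoe. The gamma-delta and NKT list gave 0 and 1 UMIs, and the defining NK gene Ncr1 was at 0 in both libraries. Summed levels were 286 and 2954 CPM for the B cell list, 201 and 261 CPM for the NK list and 56.7 and 229 CPM for the myeloid list. The plasma cell list gave 299 and 308 CPM, with at most 6 wild-type and 4 knock-in UMIs in a cell. The CD8 lineage list, of which the gate holds Cd8a and Cd8b1 at 0, gave 374 and 640 CPM (log2 ratio 0.78, 0.37 to 1.18). Without these 3 cells 77 genes were higher and 44 lower among 531 that passed the filter, beside 76 and 44 among 542 with them.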

How the data were processed

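The authors deposited whole-number UMI counts, 1 value for each gene in each barcode, from 10x 3' libraries. Per the file headers these come from Cell Ranger 6.1.2. In the submitters' processing notes stand Cell Ranger 7.1.0, the build mm10 and Seurat 5.0.3, and which version made which file was not settled. Cells were kept and gated as the report gives. Counts were summed over the cells of a gate and a library and divided by their total, and 1 library per genotype left no residual spread, so no test was made. The cells and gene lists were chosen with earlier results of these data known. Genes named are the 10 highest and 10 lowest ratios of each comparison, together with genes of the lists. Left out of these 10 were clone names, ribosomal protein, mitochondrial, haemoglobin and sex-linked genes, segments of antigen receptors and, against other gates, the genes of the gates. A gene entered at a mean of 50 CPM and a total of 100 UMIs or more, and was called from a log2 ratio of 0.5 in size.

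Intervals are 95% exact Poisson, Clopper-Pearson and conditional binomial intervals for counting error only, and a count of 0 is given the limit of 3 counts. Thinning drew 1000 UMIs per cell without replacement and left out shallower cells. Scrublet in scanpy 1.11.5 (expected rate 0.08) called 232 wild-type (2.38%) and 173 knock-in cells (2.02%) doublets, of which 0 were naive-like CD4 cells; calls were not removed. Of 32285 features, 32158 (99.6%) matched GENCODE M21 by gene ID. Numbers were computed with numpy 2.4.6, scipy 1.17.1 and pandas 2.3.3 in Python 3.11.15, figures with matplotlib 3.10.9, and TMM factors with edgeR 4.0.16 in R 4.3.3. Median-of-ratios factors were computed directly. The code was tested on simulated data. Alternatives tried were other cell limits, gates, scalings, filters and folds, thinning, and leaving out cells with effector genes, B cell transcripts, doublet calls or markers of other cell types.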

Additional observations from a re-analysis of the deposited data

Results flagged for a closer look

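Eif3i, a subunit of the translation initiation factor eIF3, had a log2 ratio of knock-in over wild-type of -0.86 in naive-like CD4 cells and of 0.56 in CD4 cells with 2 or more UMIs of the regulatory and activation genes. Crip1, a small zinc-binding protein, had 0.91 and -0.50. With all UMIs the ratios ran in opposite directions in the 2 gates, and with 1 library per genotype the difference was not tested. With cells thinned before gating, the naive-like values were 0.37 for Eif3i and -1.08 for Crip1, so the opposite directions depend on the setting. Over 16 alternatives the sign in naive-like cells changed in 2 for Eif3i and in 1 for Crip1.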

How the results depend on the processing

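Among the recomputed main results, 107 values stayed within their counting spread or within 1.5 times the main count, 38 moved further and 1 changed sign. Thinning every cell to 1000 UMIs before gating left 35 and 27 cells and 95 genes, of which 5 were higher and 13 lower; the log2 ratio of the share of kept cells was -0.15, and the effector and memory median was -1.08 from 1 gene. The same setting turned Eef1g (0.37), Eif3i (0.37), Hnrnpdl (0.62), Sec62 (1.22), Crip1 (-1.08), Vim (-0.21), Gna13 (-0.36), S100a10 (-0.085), Ifi27l2a (-0.10), Foxp1 (0.54) and Slfn2 (0.18). Without the Cd4 requirement, chosen after the data were seen, Eef1g (0.10), Eif3i (0.32) and Hnrnpdl (0.13) turned. The causes were not tested, beside fewer cells and genes by construction.

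Counts of higher and lower genes, 76 and 44 in the main result, were 25 and 19 for the same cells thinned, 41 and 24 without cells with a Cd74, Ighm or Igkc UMI, 25 and 107 with TMM factors, 31 and 99 with median-of-ratios factors, 38 and 88 with a total without ribosomal protein and mitochondrial genes and Malat1, 271 and 194 at 20 CPM and 40 UMIs, 2933 and 1437 with no filter but 1 UMI in each library, 8 and 2 at a log2 ratio of 1, and 270 and 109 without the Cd4 requirement. Without cells holding the 6 effector genes, 32 were higher. The effector and memory median (1.17, from 4 genes) was 2.91 for the same cells thinned and 2.28 with the regulatory gate at 0. It was 0.44 without cells holding the 6 genes, 3.996 without cells with Cd74, Ighm or Igkc, and 0.45 without the Cd4 requirement. For 2.91, 2.28 and 3.996, no more than 182, 366 and 267 genes of any kind passed the filter, beside 542 in the main result. A gene of low wild-type level could pass it only through the knock-in cells, as Ccl5 did, so these medians support nothing. The interferon gamma median was 0.97 without cells with Cd74, Ighm or Igkc, and the type I interferon median 0.81 with no filter. With TMM factors the type I, gamma and MHC class I medians were 0.08, 0.15 and 0.16. Against CD8 cells, 400 genes were higher and 171 lower at 20 CPM and 40 UMIs, and 26 and 12 at a log2 ratio of 1. Against CD4 cells with 2 or more regulatory UMIs these were 222 and 943, and 22 and 146.

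Depth limits single genes: 126590 knock-in UMIs in 55 cells leave most genes below the filter, and a gene under 10 UMIs over both libraries got no value under an alternative. No paired analysis was possible because each genotype has 1 library, whose replicate number only names it.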
